A study of Mus musculus with 4 samples.

Results

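Gfi1 and Gfi1b are paralogous zinc finger repressors of blood cell development, and their transcripts were compared in lineage-negative bone marrow of Mtg16 null and wild-type mice. Each gene was followed through the probes that carry its symbol alone. There was 1 such probe for Gfi1 (RefSeq accession NM_010278) and 1 for Gfi1b (NM_008114), so no second probe could check either, and the members were 2 of the 13840 genes with a probe of a single symbol. The pair was selected on its measured signals, chosen by the opposite directions of the null minus wild type difference on these same arrays, so that difference is described below and carries no test.

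The arrays held RNA of marrow from femur and tibia, magnetically depleted of cells with mature lineage markers. The Mtg16 null mice (Mtg16 is the protein name for Cbfa2t3, a corepressor of the ETO family) were N4 backcrossed into C57BL/6, and the wild-type mice were C57BL/6. All mice were females of 8 to 12 weeks, 4 were pooled for each RNA, and there were 2 arrays per genotype, 1 in each of 2 array lots. Whether array 1 and array 2 of a genotype came from different pools of mice is not stated in the labels, and p-values therefore reflect the spread among the arrays, possibly a technical one. The labels do not describe the null allele, and the position of the Cbfa2t3 probe relative to the deleted part is not known. That probe gave 95520 and 118572 signal units on null arrays 1 and 2 and 80854 and 100256 on wild-type arrays 1 and 2, so it does not check the labels in either direction. Array values had been brought to a common distribution with a median of 470 signal units, and probes of 3 Y-linked genes, which female mice lack, read 94.5 to 310 units.

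Gfi1 and Gfi1b share an amino-terminal SNAG motif, which recruits the histone demethylase Lsd1 (Kdm1a) with CoREST (Rcor1) and histone deacetylases, and carboxy-terminal zinc fingers that read DNA with the core AATC. Gfi1 is required for neutrophil formation in mice and restrains the division of stem cells, while Gfi1b is required for red cells and platelets. Each factor is known to repress its own gene and that of its paralogue. ETO family proteins have been reported to bind Gfi1, and both Mtg16 and Gfi1b have been found in complexes of the erythroid factor Gata1 with Scl (Tal1).

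The promoter windows of the pair were searched for the letters through which this self-repression and cross-repression is thought to act. Both run from 250 bases before to 50 bases after a RefSeq start in GRCm38.p6, are written on the strand of the gene, and have AATC or its reverse complement GATT in capitals. The Gfi1 window is chr5:107725756-107726055 and the Gfi1b window chr2:28621933-28622232, both on the minus strand.
Gfi1: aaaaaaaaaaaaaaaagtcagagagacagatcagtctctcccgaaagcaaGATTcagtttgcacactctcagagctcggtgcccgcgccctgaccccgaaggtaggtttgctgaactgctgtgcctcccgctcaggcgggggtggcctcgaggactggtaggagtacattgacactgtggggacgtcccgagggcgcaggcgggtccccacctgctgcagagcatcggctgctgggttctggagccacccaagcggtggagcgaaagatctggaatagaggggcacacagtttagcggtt
Gfi1b: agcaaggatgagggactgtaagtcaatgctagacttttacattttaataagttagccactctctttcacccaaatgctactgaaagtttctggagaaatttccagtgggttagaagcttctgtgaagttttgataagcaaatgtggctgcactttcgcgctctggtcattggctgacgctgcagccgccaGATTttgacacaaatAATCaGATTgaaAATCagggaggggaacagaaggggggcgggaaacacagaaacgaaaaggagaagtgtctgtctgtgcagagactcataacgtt
The Gfi1b window had 4 matches to AATC over both strands, between positions -60 and -30 relative to the start, and 10.1% of all 32851 promoter windows of this length had 4 or more. One of them was part of the longer match AAATCA, which 14.0% of windows hold. The Gfi1 window had 1 match, at positions -200 to -197, and 73.1% of windows had at least 1. A further RefSeq start of Gfi1, with the window chr5:107724294-107724593, had 0. Of the cores of factors known to act in these cells, GATA (57.9% of windows) and CCAAT (37.4%) had 1 match each in the Gfi1b window and 0 in both Gfi1 windows. The E-box core CANNTG had 2 matches in the Gfi1b window and 1 in each Gfi1 window, and 72.3% of windows had at least 1. The ETS core GGAA went the other way for the inner Gfi1 start, with 5 matches there (28.6% of windows had as many), 1 in the outer Gfi1 window and 3 in the Gfi1b window (66.3%). The Runx core TGTGGT (16.8% of windows) had 0 in all of them. These are matches of letters and do not show binding.

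**Figure D1:**
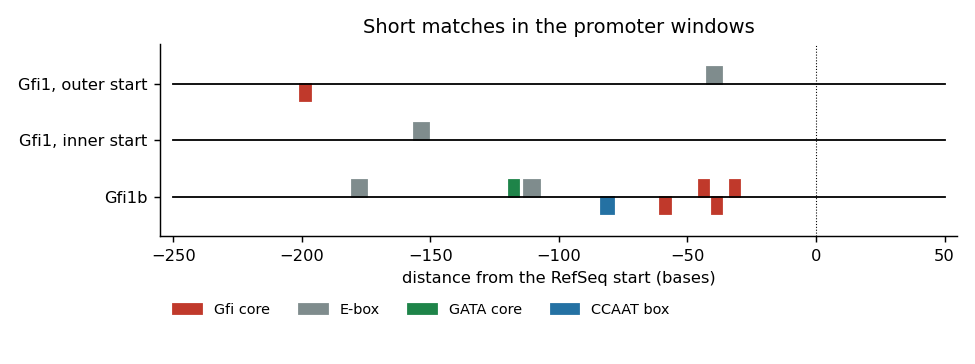
Positions of short matches in the promoter windows of Gfi1 (outer and inner RefSeq starts) and Gfi1b, in bases from the start. Boxes above a line are matches on the strand of the gene and boxes below it on the other strand, and the 4 Gfi core matches of Gfi1b lie together between -60 and -30.

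Gfi1 was higher in the null arrays. Its probe read 19566 and 20320 signal units on null arrays 1 and 2, against 4364 and 5831 on wild-type arrays 1 and 2. Both null arrays lay above both wild-type arrays, as for 22.6% of all tested genes. The null arrays lay close to each other, and the lowest was 3.36-fold above the highest wild-type array. The means were 19943 ± 533 units in null and 5097 ± 1037 in wild type (SD, n = 2 each), a log2 difference, null minus wild type, of 1.98 (SE 0.22). Within lots the null array was 4.48-fold higher in lot 1 and 3.48-fold higher in lot 2. All of these signals were at least 14.1 times the brightest Y-linked reading. On the scale of rank within an array, the probe stood at percentiles 89.5 and 89.7 on the null arrays and 77.0 and 79.7 on the wild-type arrays.

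Gfi1b was lower in the null arrays, with less separation. Its probe read 41565 and 23894 signal units on null arrays 1 and 2, against 102631 and 49010 on wild-type arrays 1 and 2. Within each genotype the array of lot 1 was the brighter. Both null arrays lay below both wild-type arrays, as for 23.1% of all tested genes. The genotypes nearly met, since null array 1 came within 1.18-fold of wild-type array 2. The means were 32729 ± 12495 units in null and 75821 ± 37916 in wild type (SD, n = 2 each), a log2 difference of -1.17 (SE 0.49). Compared within lots, wild type was 2.47-fold above null in lot 1 and 2.05-fold above null in lot 2. Dropping an array moved the Gfi1b difference either way. It became -1.57 or -0.77 when null array 1 or 2 was dropped. When array 1 or 2 of the wild type was dropped, it became -0.64 or -1.70. Each of these fits leaves a lot with a single genotype, so the gap between lots described below enters the value. With all arrays, the difference was -1.30 in lot 1 and -1.04 in lot 2. Ranks within an array were at percentiles 94.0 and 90.8 in null and 97.2 and 94.7 in wild type, and the dimmest Gfi1b value was 77.0 times the brightest Y-linked one.

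**Figure D2:**
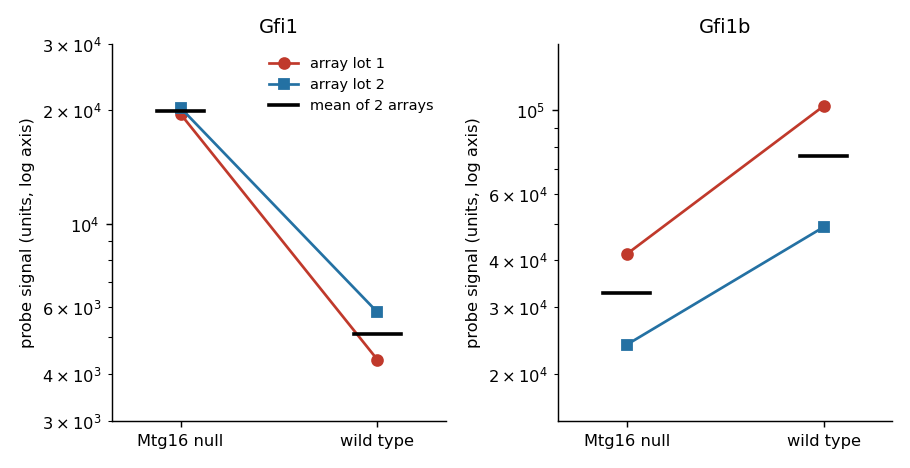
Probe signal of Gfi1 (left) and Gfi1b (right) on each array, on log axes, with null arrays left of wild-type arrays. Lines join the arrays of a lot and black bars are means of 2 arrays; Gfi1 is higher in null in both lots, and both Gfi1b lines slope the other way with lot 1 above lot 2.

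The paralogues also differed in how they varied between lots. For Gfi1b, array 2 minus array 1 was -0.80 on the log2 scale in null and -1.07 in wild type, and 90.2% and 91.3% of tested genes had a gap no larger in that genotype. For Gfi1 the corresponding gaps were 0.05 in null and 0.42 in wild type, with 12.4% and 59.1% of genes having a gap no larger. Because the Gfi1b shift was shared by the genotypes, the difference in lot 1 and that in lot 2 were only 0.27 apart for Gfi1b, and 0.36 apart for Gfi1. The median of this distance over all genes was 0.24. With the lot as a block in the limma fit, the difference of Gfi1b stayed at -1.17 with an SE of 0.14, and that of Gfi1 at 1.98 with an SE of 0.16. The Gfi1 difference exceeded the Gfi1b difference by 3.47 in lot 1 and 2.84 in lot 2, with a mean of 3.15 on the log2 scale.

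**Figure D3:**
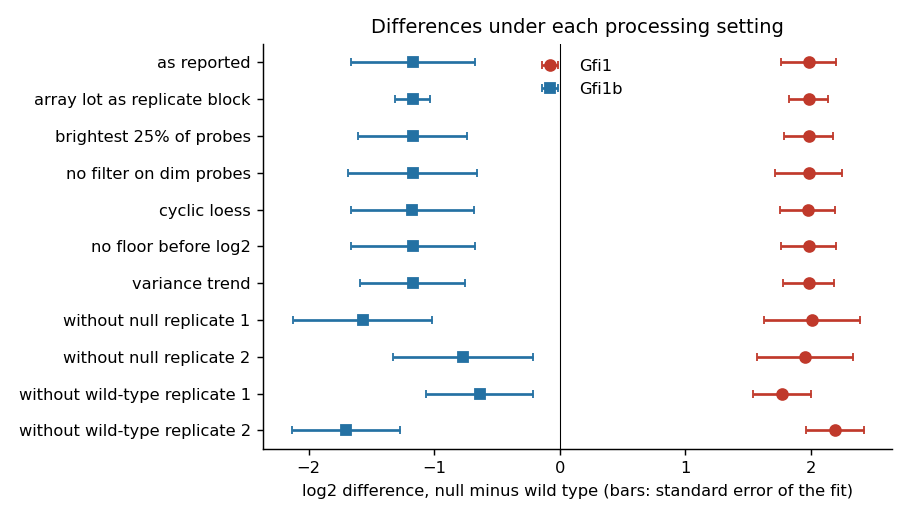
Log2 difference of Gfi1 (circles) and Gfi1b (squares), null minus wild type, under each processing setting, with bars of 1 standard error of the fit. Gfi1 stays between 1.77 and 2.19 and Gfi1b between -1.70 and -0.64, and the Gfi1b bar is shortest with the lot as a block.

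Among the 8445 tested genes, 39 had a higher log2 difference than Gfi1 and 236 a lower one than Gfi1b. A change of at least 2-fold in both lots was reached in the higher direction by 3.26% of tested genes, Gfi1 among them, and in the lower direction by 2.19%, Gfi1b among them. In lot 2 Gfi1b lay just past the 2-fold limit. These positions follow from how the pair was chosen. Over all tested genes the median log2 difference was -0.02, and 47.9% were higher in null by sign. With limma and Benjamini-Hochberg adjustment 0.118% of them passed an adjusted p of 0.05, all 10 lower in null, and 16.5% had an unadjusted p under 0.05. The count of 10 was 295 with a variance trend, and 295 of 4967 genes with the brightest 25% of probes alone. A fit that blocked on the lot gave 0.

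**Figure D4:**
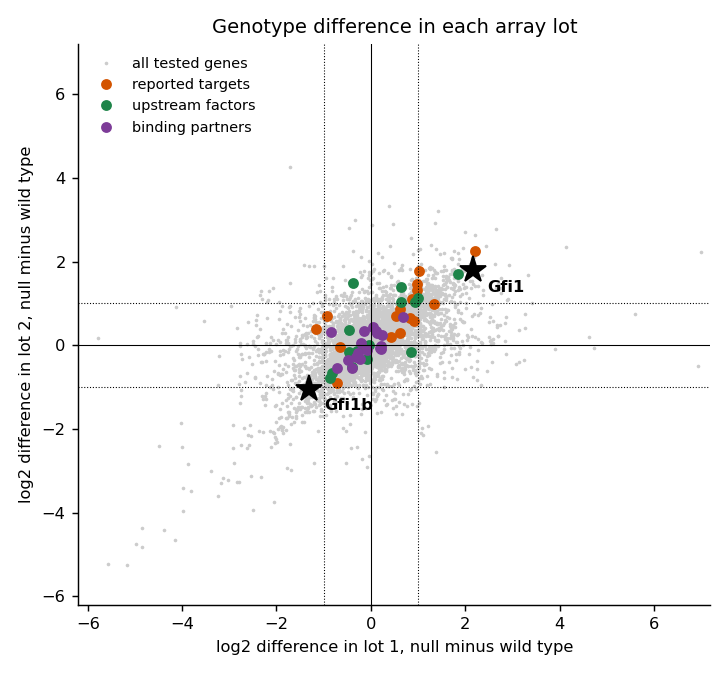
Log2 difference, null minus wild type, in lot 1 (horizontal) and lot 2 (vertical) for all 8445 tested genes (grey), the listed partners, upstream factors and targets (colours) and the pair (stars). Upstream factors are those reported to act on the loci of the pair or with the pair. Dotted lines mark 2-fold. Gfi1 lies beyond 2-fold in the upper right and Gfi1b beyond it in the lower left.

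Transcripts of corepressors and other proteins reported to bind Gfi1 or Gfi1b showed small differences. Of 23 listed binding partners, 20 had a probe and 18 were bright enough to be tested, and 0 passed limma over all genes (3 at an unadjusted p under 0.05, a share near the 16.5% of all genes). None reached 2-fold in both lots, 9 were higher and 9 lower in null, and the median log2 difference was -0.01, against -0.02 for all genes. Kdm1a, the demethylase that binds the SNAG motif, read 13345 and 12133 units in null and 15511 and 11592 in wild type. Those ranges overlapped, and null minus wild type was -0.08 (SE 0.23; adjusted p = 0.922 by limma). Rcor1, the CoREST scaffold that ties Kdm1a to deacetylases, had a difference of -0.29, and Rcor3, a related scaffold, one of -0.47 (adjusted p = 0.302). The deacetylase genes Hdac1, Hdac2 and Hdac3 had differences of 0.10, 0.10 and -0.22. The extremes were Phf21a, a subunit of the Kdm1a complex that reads unmodified histone H3, at 0.68 (SE 0.17, adjusted p = 0.181), and Rela, the NF-κB subunit that Gfi1 can bind, at -0.63 (SE 0.20, adjusted p = 0.263). Phf21a was alike in the lots, with 7231 and 7427 units in null against 4484 and 4654 in wild type. Cbfa2t2, a further ETO family gene, changed sign between lots (-0.85 and 0.31), and Runx1t1, the third of that family, read at most 208 units, within the Y-linked range. Other zinc finger genes with a SNAG motif were mostly dim. Of 9 listed, 8 had a probe and 1 was tested, Insm2, a neuroendocrine factor gene, with a difference of 0.19 (adjusted p = 0.818); Snai1 and Snai2, which act in epithelial to mesenchymal transition, read at most 351 and 136 units.

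Factors reported to act on the loci of the pair, or with the pair in blood progenitors, are called upstream factors here. They differed in both directions, 7 of them above 0 and 8 below. Of 18 listed, 16 had a probe and 15 were tested. With limma 0 passed over all genes and 5 had an unadjusted p under 0.05 (16.5% of all genes did), while 2 were at least 2-fold higher in both lots and 0 lower, against 3.26% and 2.19% of all genes. Cebpe, a factor of granulocyte maturation, read 32618 and 19102 units in null against 8999 and 5851 in wild type. Both null arrays were above both wild-type arrays, as for 22.6% of all genes. The log2 difference of Cebpe was 1.78 (SE 0.38, adjusted p = 0.145 by limma). Cbfb, the partner subunit of Runx factors, read 10370 and 12122 units in null against 5172 and 5580 in wild type (log2 difference 1.06, adjusted p = 0.113). It lay just past 2-fold in lot 1 and fell short of it there after cyclic loess. Fli1, an ETS factor of megakaryocytes and stem cells, had a difference of 0.98 (SE 0.17, adjusted p = 0.108). Cebpa, required for granulocyte-monocyte progenitors, had one of 1.01 (SE 0.43, adjusted p = 0.373), and Lyl1, a relative of Tal1, one of 0.83 (SE 0.46, adjusted p = 0.483). Nfya, a subunit of the factor that reads CCAAT, and the lymphoid factor Ikzf1 had differences of 0.56 and 0.35 and changed sign between lots.

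The lowest differences were those of Zfpm1 and Gata1. Gata1, which activates Gfi1b in red cell precursors, read 30302 and 28232 units in null against 53860 and 44692 in wild type. Both null arrays were below both wild-type arrays, as for 23.1% of all genes. The log2 difference of Gata1 was -0.75 (SE 0.19, adjusted p = 0.199 by limma). Zfpm1, which encodes the Gata1 cofactor Fog1, read 70039 and 63489 units in null against 128227 and 109472 in wild type (log2 difference -0.83, SE 0.19, adjusted p = 0.161). Tal1 had a difference of -0.31 and its partner Lmo2 one of -0.20, with adjusted p-values of 0.508 and 0.686. Ldb1, the adaptor of the complex that holds Gata1, Tal1 and Lmo2, changed sign between lots (-0.47 and 0.36). The T cell factor Gata3 had a difference of -0.46 and the E protein gene Tcf3 one of -0.22. Gata2, a stem and progenitor factor, gave nearly equal signals, 36097 and 38196 units in null against 37143 and 37836 in wild type (log2 difference -0.01, SE 0.17). The median over the 15 factors was -0.01, and over these same genes it was 0.23 without wild-type array 1, 0.07 without null array 2, -0.039 without null array 1 and -0.11 without wild-type array 2.

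Most genes reported as bound or repressed by Gfi1 or Gfi1b read higher in null by sign. Of 26 listed, 19 had a probe and 17 were tested. By sign 12 were higher and 5 lower, while 47.9% of all genes were higher. The median log2 difference was 0.74, against -0.02 for all genes. With limma 0 passed over all genes and 10 had an unadjusted p under 0.05, as did 16.5% of all genes. Both null arrays were above both wild-type arrays for 12 of the 17, against 22.6% of all genes, and below them for 2, against 23.1%. At least 2-fold higher in both lots were 2, Elane and Spi1, and 0 were as far below, against 3.26% and 2.19% of all genes. The list was drawn up with earlier results of these arrays known, and several of its genes are themselves markers of myeloid progenitors.

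Elane, the neutrophil elastase gene, whose promoter human GFI1 represses, read 537679 and 443379 units in null against 116419 and 92883 in wild type (log2 difference 2.23, SE 0.22, adjusted p = 0.0744). Its null arrays stood at the same distance from wild type in both lots, 2.21 and 2.26. Spi1, which encodes PU.1, the myeloid factor that Gfi1 can antagonise, read 17084 and 14587 units in null against 8395 and 4237 in wild type (log2 difference 1.40, SE 0.39, adjusted p = 0.220). Irf8, a monocyte and dendritic cell factor repressed by Gfi1, read 38020 and 37594 units in null against 20655 and 17595 in wild type. Its arrays of a genotype were close together, and the log2 difference was 0.99 (SE 0.18, adjusted p = 0.122).

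For Id1, an inhibitor of E proteins, null minus wild type was 1.17 (SE 0.19, adjusted p = 0.104). Socs3, a feedback inhibitor of cytokine signalling, had one of 1.15 and Cxcr4, the receptor that retains progenitors in marrow, one of 1.22. The cell cycle inhibitor gene Cdkn1a, repressed by both paralogues, had a difference of 0.61 and the survival gene Bcl2l1, a Gfi1b target, one of 0.75. Rgs18, a regulator of G protein signalling in platelets, had one of 0.74 and Myb, a progenitor factor, one of 0.75. The stem cell factors repressed by Gfi1 in myeloid progenitors had smaller differences, Hoxa9 with -0.08 (adjusted p = 0.898) and Meis1 with 0.31 (adjusted p = 0.501). Ccne1, the cyclin E1 gene, was the lowest, at 32287 and 28895 units in null against 53376 and 53781 in wild type (log2 difference -0.81, SE 0.17, adjusted p = 0.144). Egr1 and Tgfbr3 changed sign between lots and read at most 865 and 800 units.

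**Figure D5:**
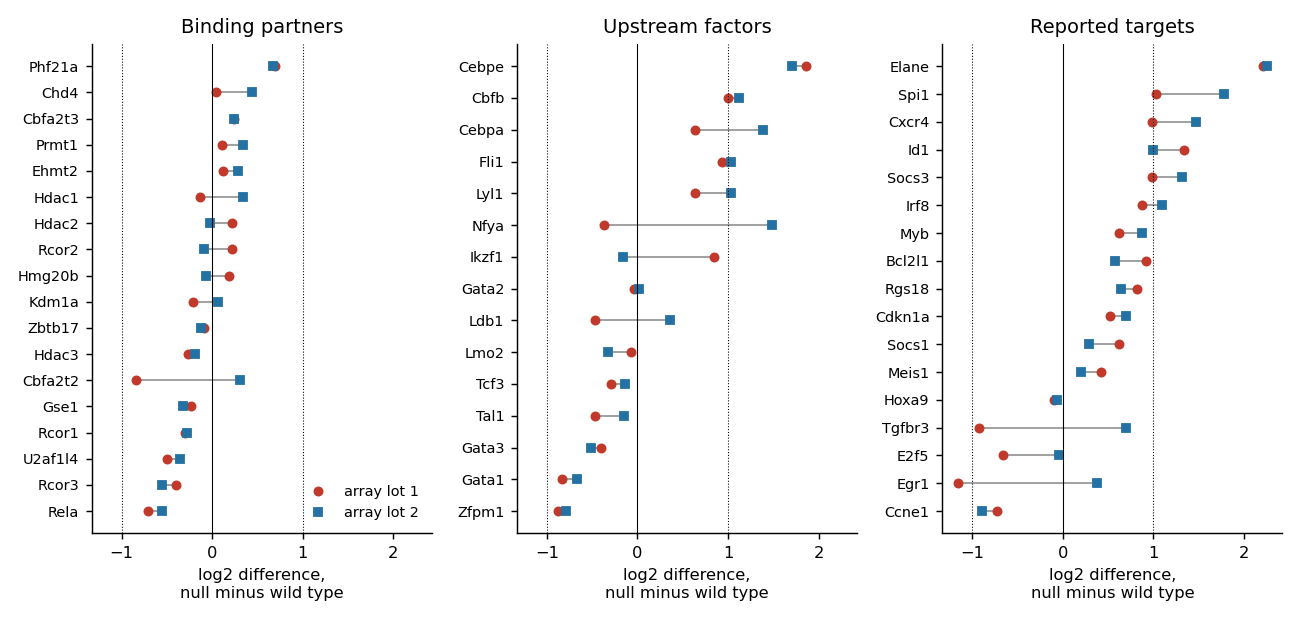
Log2 difference, null minus wild type, in lot 1 (circles) and lot 2 (squares) for each tested binding partner, upstream factor and reported target, ordered by mean difference. Partners cluster around 0, Cebpe leads the upstream factors with Gata1 and Zfpm1 at the low end, and 12 of the 17 targets lie above 0 in both lots.

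Markers of the cell types in which the pair acts were read beside it. In the fit as reported only the late neutrophil list had members past limma over all genes, while a variance trend or the brightest 25% of probes gave calls in other marker lists too. In RNA of mixed cells, fewer cells of a type and less RNA per cell cannot be told apart. All 6 early granulocyte markers were tested and were higher in null by sign, as were 47.9% of all genes. Both null arrays were above both wild-type arrays for 4 (22.6% of all genes). At least 2-fold higher in both lots were 3, Prtn3, Ctsg and Ms4a3 (3.26% of all genes). Mpo, the brightest, had a difference of 0.40 (0.78 in lot 1 and 0.03 in lot 2). Csf3r had one of 0.05 and changed sign between lots (0.24 and -0.14). The median log2 difference of the 6 markers was 1.28, beside the 1.98 of Gfi1. Their summed signal was 4276805 and 3745491 units in null against 2031430 and 2053043 in wild type. Of 11 tested late neutrophil markers 10 were at least 2-fold lower in both lots, against 2.19% of all genes, and 6 passed limma over all genes, against 0.118%, with a median of -3.64. With the lot as a block 0 of the 11 passed (smallest adjusted p = 0.113), as with any array left out and with dim probes kept, while 10 had an unadjusted p under 0.05 in each of these fits. Their sums were 156044 and 146023 units in null against 1337737 and 1452410 in wild type. All 10 tested erythroid markers were lower in null by sign, 5 by at least 2-fold in both lots (2.19% of all genes). Their median was -1.21, beside the -1.17 of Gfi1b, but single markers ran from -1.77 to -0.34. Their sums were 1229541 and 1070620 units in null against 2553721 and 1746162 in wild type. Lot 1 was the brighter in both genotypes for 5 of the 10 and lot 2 for 3, a count that was not set against all genes. Megakaryocyte markers, from the other lineage that needs Gfi1b, went opposite to it. Of 7 tested, 6 were higher in null by sign and 1, Vwf, lower, with a median of 0.77 and sums of 954704 and 840932 units in null against 499000 and 499467 in wild type. No tested marker had a difference of exactly 0. The part of cell composition in the differences of Gfi1 and Gfi1b was not tested.

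Markers of other cells that the depleted marrow can hold were also read. Of the T and natural killer list, 3 markers of natural killer or cytotoxic cells were tested (Klrb1c, Ncr1 and Gzma). Its T cell markers had no probe or were too dim to be tested. Klrb1c and Ncr1 were dim in wild type, with means of 362 and 549 units. The median log2 difference was 0.63 for 4 monocyte markers, 1.06 for 5 B lineage and 1.28 for those 3 natural killer or cytotoxic markers. It was 0.51 for 5 stem and multipotent markers and 0.75 for 4 stroma and endothelium markers. It was -0.55 for 7 mast cell, basophil and eosinophil markers, of which the eosinophil granule genes Prg2 and Epx were at least 2-fold higher in both lots (log2 differences 2.13 and 1.88) and the other 5 ran from -0.69 to 0.17, the basophil protease gene Mcpt8 at -0.65. Of the 5 stem and multipotent markers 3 were higher in null by sign and 2 lower, from -0.24 to 1.94. Slamf1 and Cd34 were at least 2-fold higher in both lots (log2 differences 1.94 and 1.48), against 3.26% of all genes. The pan-progenitor receptor gene Kit had a difference of -0.19. None of these genes passed limma over all genes in the fit as reported.

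The genes whose pattern was most like that of each member were taken by the root mean square distance between log2 values centred on the mean of the 4 arrays. For Gfi1 the nearest were Hsd11b1, an enzyme that activates glucocorticoids, at a distance of 0.02, then Thnsl2 (0.05), a threonine synthase homologue, Ppp2ca (0.06), the catalytic subunit of protein phosphatase 2A, the cytokine gene Tslp (0.08) and the organic anion transporter gene Slco3a1 (0.10). Hsd11b1 averaged 49432 ± 1056 units in null and 13062 ± 2590 in wild type (SD, n = 2 each). The wild-type means of Thnsl2 (280 units) and Tslp (248 units) lay within the range of Y-linked probes. For Gfi1b the nearest were Dpf1 (0.10), a chromatin remodelling subunit, Scml4 (0.11), a polycomb-like gene, Pik3cd (0.13), a catalytic subunit of phosphoinositide 3-kinase, Gpsm2 (0.14), which orients the mitotic spindle, and Def8 (0.16). Of these Gpsm2 was the brightest, at 5605 ± 1334 units in null and 14970 ± 7698 in wild type (SD, n = 2 each). Gpsm2 shared with Gfi1b the brighter lot 1, a likeness that the choice by distance selects for. The null means of Dpf1 (383 ± 169 units) and Pik3cd (311 ± 135 units) were below the array median of 470 units. That of Pik3cd was close to the brightest Y-linked reading of 310 units. Def8 lies on chromosome 8, as does Cbfa2t3, 20 places away in the order of protein-coding genes, and the part of the backcrossed region in its difference was not tested. With 4 arrays and a large shared genotype step, many genes come near either pattern, and nearness is a description only. The distance between Gfi1 and Gfi1b themselves was 1.69.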

How the data were processed

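Per the labels' protocols, digoxigenin-labelled cRNA was read on single-colour Applied Biosystems arrays. The authors deposited linear intensity values of 33012 probes, from 28.2 to 3093946 signal units. Once sorted, the arrays matched within 0.286%, so the values were already quantile normalized; for background correction and detection calls the labels give nothing. Probes were named from the platform annotation (14411 with 1 symbol, 247 with several, 18354 with none). Signals were floored at the 1st percentile (75.8 units) and log2 transformed. The brighter 50% of probes were kept, with the brightest probe per gene, and a limma 3.58.1 fit (R 4.3.3) covered 8445 genes (lmFit and eBayes; genotype only; Benjamini-Hochberg over all 8445). Standard errors are from that fit. Alternatives were the lot as block, other filters, cyclic loess, no floor, a variance trend and each array left out. Each gene of the pair had 1 probe, so the planned change of probe was not run. The array lot of the labels pairs the arrays; deviations of same-lot arrays from their genotype means correlated at 0.50 over genes. Genes that could be named were the pair, Cbfa2t3, members of the pathway lists, the 2 brightest and the 2-fold changed markers of each list, and the 5 nearest patterns per member. Not all of them are printed. Csf3r was named outside this rule, and Vwf after its value was seen. The members and lists were chosen with earlier results of these data known. The fit was tested on simulated data with equal, independent noise for all genes and no lot effect. That test does not show how the fit performs on these arrays. Promoter windows are from RefSeq, GRCm38.p6, where both genes of the pair matched. Figures used matplotlib 3.10.9 in Python 3.11.15. The number of arrays limits the precision.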

Additional observations from a re-analysis of the deposited data

How the results depend on the processing

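The directions of Gfi1 and Gfi1b were kept under every alternative run, but most of these could not have changed them. The block, the filters, the missing floor and the variance trend return the same differences, 1.98 and -1.17. As the genotypes did not overlap for either gene, leaving out an array cannot reverse a sign either. Gfi1 lay between 1.77 and 2.19 with an array left out, and Gfi1b between -1.70 and -0.64, where the lone array of a genotype is assumed to vary like the other genotype. The number of genes past the threshold, 10 as reported, was 0 with the lot as a replicate block (2054 at an unadjusted p under 0.05), 0 when dim probes were kept (1512), 295 with the brightest 25% of probes, 295 with a variance trend and 0 to 0 with an array left out (668 to 1428 at an unadjusted p under 0.05). The cause was not tested. Of all genes, the brightest 25% of probes called 295 of 4967 and the variance trend 295 of 8445. Among targets and upstream factors, both settings called Elane, Irf8, Cbfb and Fli1 as higher and Ccne1 as lower. The brightest 25% also called Cebpe as higher. It tested 9 targets and 11 upstream factors, and the variance trend 17 and 15. The block called no member of the pathway lists. Without the filter, which adds dim genes, the medians were 0.064 for partners, 0.17 for upstream factors and 0.61 for targets, and with the brightest 25% that of partners was 0.064. With an array left out the medians ran from -0.10 to -0.015 for partners, from -0.057 to 0.36 for upstream factors and from 0.55 to 0.68 for targets. The filter then tested 16 upstream factors without either wild-type array. Over the genes tested with all arrays, a choice made after seeing the data, the ranges were -0.10 to -0.015, -0.11 to 0.23 and 0.55 to 0.68. Cyclic loess left 1 upstream factor at least 2-fold higher in both lots. Of 976 values under the alternatives for the single genes that could be named, the pair left out, 951 kept their sign and 25 did not. The low signals of Runx1t1, Snai1 and Snai2 limit what can be said of them.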
